A study of Mus musculus with 12 samples.

Results

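Transcripts of the Id, Hes and inhibitory Smad genes were measured in mouse auditory cortex by RNA sequencing, with 9 members taken by gene symbol from the 20989 loci of each library: Id1, Id2, Id3, Id4, Hes1, Hes5, Hey1, Smad6 and Smad7. Acute coronal slices of 350 µm were cut from 4-week-old C57bl6/J mice and divided along the midline. For each of 6 mice, 1 hemisphere was kept for 1 h in control artificial cerebrospinal fluid (aCSF). The other was kept for the same time in cocktail aCSF, which contained 50 µM bicuculline methiodide (a blocker of GABA-A receptors), 100 µM DL-norepinephrine, 50 µM carbamoylcholine (an agonist of acetylcholine receptors), 100 µM dopamine, 40 µM ascorbic acid and 100 µM serotonin. The methods of the study add a rest of 1 h in plain aCSF for both hemispheres before the cortex was dissected, a step the sample labels do not mention. The 6 agents were only given together, so their separate effects cannot be told apart, and all 12 libraries, controls included, come from tissue that had been cut and incubated. The comparison asks which of these genes differed between the cocktail and the control hemisphere of the same mouse.

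Id proteins are helix-loop-helix proteins with no basic region. They pair with E proteins such as Tcf3, Tcf4 and Tcf12, and so keep these and their tissue-specific bHLH partners from binding DNA. Id genes are classical targets of bone morphogenetic protein (BMP) signalling through Smad1, Smad5 and Smad9 with Smad4. Smad6 and Smad7, the inhibitory Smads, are induced by BMP and TGF-beta and feed back on the receptors. Hes1, Hes5 and Hey1 are bHLH repressors and the best known targets of Notch signalling, in which the cleaved receptor joins Rbpj and a Mastermind protein on DNA. In the adult cortex many of these genes are associated with astrocytes and vessel cells, and several of them also respond quickly to other signals.

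The Id genes are close paralogs, and 60 coding bases from the second helix of the helix-loop-helix region are shown because this is where their transcripts are most alike. The stretches lie in GENCODE M21 transcripts on GRCm38 at chr2:152736582-152736641 (plus strand, Id1), chr12:25095779-25095838 (minus strand, Id2), chr4:136144066-136144125 (plus strand, Id3) and chr13:48261757-48261816 (plus strand, Id4). Capitals mark the bases that differ from Id1.
Id1: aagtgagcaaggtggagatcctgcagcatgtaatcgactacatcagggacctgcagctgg
Id2: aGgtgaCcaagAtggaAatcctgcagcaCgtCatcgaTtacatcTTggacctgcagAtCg
Id3: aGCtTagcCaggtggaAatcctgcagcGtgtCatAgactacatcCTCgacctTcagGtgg
Id4: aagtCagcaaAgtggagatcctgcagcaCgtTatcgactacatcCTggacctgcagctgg

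Of the 60 bases, Id4 shared 54 with Id1, Id2 shared 49 and Id3 shared 47. The authors allowed 6 mismatches for a read of 50 bases and kept reads with a single placement, so it matters how often a stretch of a member's transcript has a near copy elsewhere. Within 6 mismatches, 17 of the 885 stretches of 50 bases in Id1 (1.92%) had a match in another gene, all of them in Id4. In Id2 these were 188 of 1221 (15.4%), of which 187 matched the processed pseudogene Gm6175, 8 of them without a mismatch. Id3, Hes1 and Smad6 had 0, Smad7 had 1 and Hey1 had 5. In Hes5, 290 of 1224 stretches (23.7%) were identical with Gm20421, which lies across Hes5 on the opposite strand, and in Id4, 104 of 3800 (2.74%) had a match, 86 of them with Gm49291 on the strand opposite to Id4. The level of Id2 is uncertain as far as its reads could be placed on Gm6175. The libraries kept strand, but whether the estimation used it is not given in the sources used here, so reads of Hes5 and Id4 cannot be told apart from those of their antisense partners.

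RefSeq promoters of 300 bases, from 250 before to 50 after the start, were at hand for 5 of the 9 members (build GRCm38.p6): Id2, Id3, Id4, Hes5 and Smad6. Id1, Hes1, Hey1 and Smad7 had no entry. Those of Id2, Id3 and Hes5 are shown as examples that hold letters known from the pathways named above. That of Id4 holds such letters too and is not shown. Those shown lie at chr12:25096043-25096342 (minus strand), chr4:136143572-136143871 (plus strand) and chr4:154960673-154960972 (plus strand). Capitals mark GGCGCC, known from BMP-responsive elements bound by Smad1 and Smad5, in Id2 and Hes5. In Id3 they mark CAGAC, the letters of the Smad binding element, and in Hes5 also GTGGGAA, an Rbpj site, each as it reads on either strand.
Id2: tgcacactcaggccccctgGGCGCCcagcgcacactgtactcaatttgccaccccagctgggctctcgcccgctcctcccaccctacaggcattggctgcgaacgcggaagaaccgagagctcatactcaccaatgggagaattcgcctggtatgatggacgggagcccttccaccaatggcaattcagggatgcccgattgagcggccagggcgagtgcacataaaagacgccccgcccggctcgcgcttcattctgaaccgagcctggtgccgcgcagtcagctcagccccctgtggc
Id3: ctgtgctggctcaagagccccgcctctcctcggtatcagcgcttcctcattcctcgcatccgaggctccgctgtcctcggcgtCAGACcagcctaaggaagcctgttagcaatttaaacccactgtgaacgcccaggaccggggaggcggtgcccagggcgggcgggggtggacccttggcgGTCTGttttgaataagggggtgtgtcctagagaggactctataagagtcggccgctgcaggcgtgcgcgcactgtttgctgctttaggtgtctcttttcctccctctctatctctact
Hes5: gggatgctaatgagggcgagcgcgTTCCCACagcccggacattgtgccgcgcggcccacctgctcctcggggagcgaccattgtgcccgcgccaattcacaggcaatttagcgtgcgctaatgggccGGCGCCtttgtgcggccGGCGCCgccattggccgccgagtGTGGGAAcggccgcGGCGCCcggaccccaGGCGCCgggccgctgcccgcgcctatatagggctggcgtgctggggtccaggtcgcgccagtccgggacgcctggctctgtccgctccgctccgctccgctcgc

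Searched on both strands, GGCGCC was found 4 times in the Hes5 promoter and 1 time each in those of Id2 and Id4, and 11.9% of all 32851 promoters held it. GTGGGAA was found 2 times in Hes5 and in none of the other 4, against 6.38% of all promoters. CAGAC was found 2 times in Id3 and in none of the other 4, against 49.6% of all promoters. TGACG, the core of the cAMP response element, was found 1 time each in Id3 and Id4, against 20.8%, and its match in Id3 overlaps that of CAGAC. The Hes site CACNAG was found 1 time each in Id2 and Id4, against 42.5%. The AP-1 letters TGANTCA and the E-box CACGTG were found in none of the 5 promoters. GC content was 60% to 73.3% in the 5 promoters against a median of 52.7% over all promoters, and such motifs are met more often where G and C are common. These matches are letters in a window, and binding was not measured.

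Levels are given as FPKM, fragments scaled to the length of the transcript and to the depth of the library, so that levels can be set side by side between genes. From 10600193 to 19768184 reads lay behind the control libraries and from 13539422 to 17506709 behind the cocktail libraries, as recovered from the intervals of the FPKM values. The control library of mouse 1 stood apart from the others, with a mean correlation across genes of 0.985 with the other libraries against 0.991 to 0.992 for the rest, so the fitted changes of the 8 members tested are also given without mouse 1. Markers of excitatory neurons were high, as in cortex, with Slc17a7 at 689 ± 38.0 FPKM and Camk2a at 622 ± 42.2 FPKM in control (SD, n = 6). The 6 choroid plexus markers summed to at most 2.12 FPKM in any library. In bulk tissue, fewer cells of a type and less RNA per cell cannot be told apart, and this holds for every change below.

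Of the 9 members, 8 passed the filter of a mean of at least 1 FPKM over the 12 libraries and were tested. Id1 and Smad7 rose in the cocktail hemispheres and none of the others passed the threshold. This is 2 of 8 members called by limma at an adjusted p under 0.05, against 1.5% of the 12032 loci tested in either direction and 1.22% in the higher direction. At an unadjusted p under 0.05, 5 of the 8 passed (Id1, Id2, Id4, Hes1 and Smad7), against 8.05% of all loci. The fitted change was above 0 in all 8, from 0.01 for Hey1 (which turned below 0 with quantile normalization and with voom) to 0.56 for Id1 on the log2 scale, with a median of 0.20 against 0.0076 over all loci tested. The members were chosen with earlier results of these data known, so these comparisons with all loci are a description and cannot show enrichment. Changes are differences of log2(FPKM + 1), which understates the change of low genes. Smad6, the 9th member, was below the filter.

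**Figure D1:**
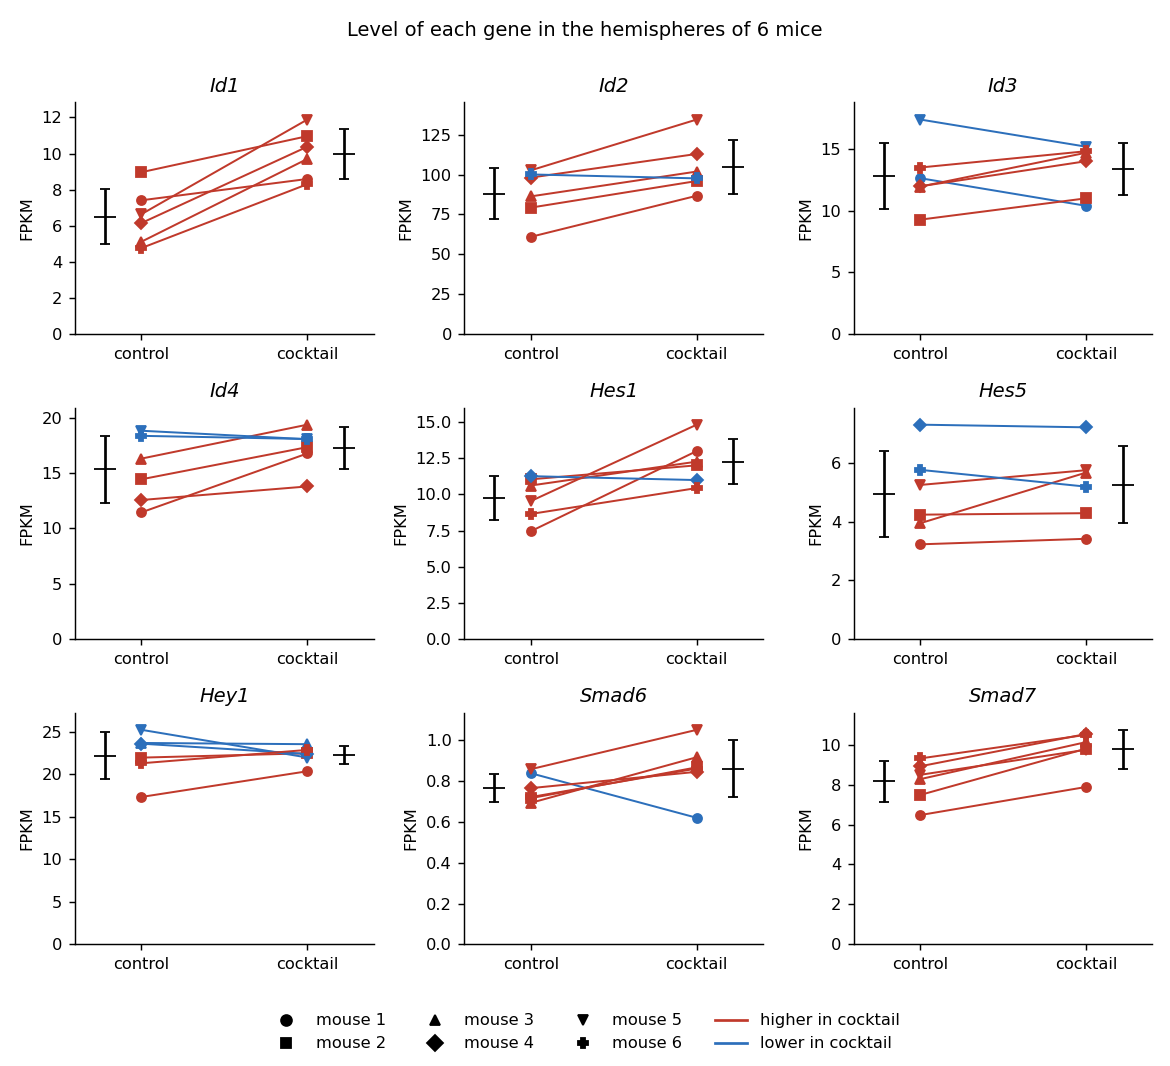
FPKM of each of the 9 genes in the control and the cocktail hemisphere of 6 mice, with lines joining the hemispheres of a mouse and black bars for the mean ± SD. Id1 and Smad7 were higher in the cocktail hemisphere of all 6 mice, and the control and cocktail ranges of all 9 genes overlap.

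Id1 (chr2:152736251-152737410, plus strand, mm10) had the largest change of the members. In control hemispheres its level ran from 4.76 to 8.97 FPKM with a median of 6.40, and in cocktail hemispheres from 8.30 to 11.9 FPKM with a median of 10.04. It was higher in the cocktail hemisphere of all 6 mice, and 4 of the 6 cocktail libraries lay above the highest control library, that of mouse 2. The means were 6.51 ± 1.55 FPKM in control and 9.97 ± 1.38 FPKM in cocktail (SD, n = 6), a ratio of 1.53. Within mice, the ratio of cocktail to control was 1.16 in mouse 1 and 1.22 in mouse 2, and 1.69 to 1.90 in mice 3 to 6, so the direction was shared by all mice and the size was not. The log2 fold change was 0.56 ± 0.085 (SE), with a 95% interval of 0.38 to 0.75 and an adjusted p of 0.00442 by limma. The exact sign-flip permutation test over the 6 mice gave p = 0.03125, and 6 pairs cannot give a smaller value. Without mouse 1 the change was 0.64 with an adjusted p of 0.00114, and the call was kept whichever mouse was left out. The level rests on 49 to 174 reads a library, and limma-voom on these reads gave a change of 0.57 with an adjusted p of 0.0786, so the call was lost there. Counting error alone gives a spread of 10.2% at this depth, against a spread of 23.8% among the control libraries.

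Id2 (chr12:25093799-25096092, minus strand) was by far the most abundant Id transcript. Its level ran from 61.0 to 103 FPKM in control (median 92.3) and from 86.8 to 135 FPKM in cocktail (median 99.8), and it was higher in the cocktail hemisphere of 5 of 6 mice. The exception was mouse 6, where the control level was 100.1 FPKM and the cocktail level 97.7 FPKM. The means were 88.0 ± 16.0 and 105 ± 16.8 FPKM (SD, n = 6), and the log2 fold change of 0.26 ± 0.062 (SE) did not pass the threshold (limma, adjusted p = 0.0766). Without mouse 6 it was 0.32 and passed, with an adjusted p of 0.0172. Without mouse 1, whose difference of 0.50 was the largest, it was 0.21 with an adjusted p of 0.128.

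Id3 and Id4 lay between these levels. Id3 (chr4:136143822-136145392, plus strand) had 9.27 to 17.4 FPKM in control (median 12.3) and 10.4 to 15.2 FPKM in cocktail (median 14.4). Its log2 fold change was 0.07, with a 95% interval of -0.10 to 0.23 and an adjusted p of 0.890 by limma, and it was higher in cocktail in 4 of 6 mice. Id4 (chr13:48261427-48264036, plus strand) had 11.5 to 18.8 FPKM in control (median 15.4) and 13.8 to 19.4 FPKM in cocktail (median 17.7). Its log2 fold change was 0.17, with a 95% interval of 0.02 to 0.33 and an adjusted p of 0.503 by limma, and it was lower in cocktail in mice 5 and 6. Without mouse 1 the value of Id4 was 0.11, with an interval of -0.02 to 0.23, and that of Id3 was 0.13, with an interval of -0.01 to 0.27. The unadjusted p of Id4 was over 0.05 without mouse 1, 2 or 3 and with voom. Mouse 1 had the largest rise of Id4, by 0.51, and the largest fall of Id3, by 0.26, so the hemispheres of this animal differed in opposite directions for these paralogs.

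Together the 4 Id genes summed to 123 ± 19.0 FPKM in control and 146 ± 19.4 FPKM in cocktail (SD, n = 6). Id2 made up 71.5% ± 3.39 of the sum in control and 71.9% ± 2.25 in cocktail. The share of Id1 was 5.52% ± 1.98 in control and 6.87% ± 0.699 in cocktail, with overlapping ranges. Id1 was thus the gene of the family with the largest mean relative change and the smallest mean share of its transcripts. Its change was not shown to exceed those of the other Id genes after adjustment, as given below for pairs of paralogs. Id2 changed more than Id1 in 2 of 6 mice, Id4 in 1 and Id3 in 0.

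Hes1 (chr16:30065357-30067796, plus strand), which represses its own gene and that of several proneural factors, ran from 7.45 to 11.3 FPKM in control (median 10.1) and from 10.4 to 14.8 FPKM in cocktail (median 12.1). It was higher in the cocktail hemisphere of 5 of 6 mice, and 4 of 6 cocktail libraries lay above the highest control library. Its means were 9.75 ± 1.497 and 12.2 ± 1.55 FPKM (SD, n = 6), and the log2 fold change of 0.30 ± 0.090 (SE) did not pass the threshold (limma, adjusted p = 0.205). The differences of mouse 1 (0.73) and mouse 5 (0.59) stood above those of the other 4 mice, which ran from -0.03 to 0.25. Without mouse 1 the change was 0.22 with an adjusted p of 0.345.

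Hes5 and Hey1 were close to level between the hemispheres. Hes5 (chr4:154960923-154962371, plus strand) had 3.23 to 7.31 FPKM in control (median 4.75) and 3.42 to 7.22 FPKM in cocktail (median 5.44), and its change of 0.08 had a 95% interval of -0.08 to 0.23 (limma, adjusted p = 0.863) and was 0.08 without mouse 1 as well. Mouse 1 had the lowest and mouse 4 the highest Hes5 level in both hemispheres, and the difference of 0.43 in mouse 3 was the largest. Hey1 (chr3:8663359-8667038, minus strand) had 17.3 to 25.2 FPKM in control (median 22.8) and 20.3 to 23.5 FPKM in cocktail (median 22.4). It was higher in cocktail in 3 mice and lower in 3, with a change of 0.01 and a 95% interval of -0.11 to 0.14 (limma, adjusted p = 0.981), and without mouse 1 the value was -0.03. Among the members Hey1 had the narrowest spread of cocktail levels after scaling to the mean, at 22.2 ± 1.07 FPKM (SD, n = 6).

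Smad7 (chr18:75367365-75395934, plus strand), which blocks both TGF-beta and BMP receptors and recruits ubiquitin ligases to them, rose with a small and even change. Its level ran from 6.47 to 9.31 FPKM in control (median 8.38) and from 7.88 to 10.5 FPKM in cocktail (median 9.96). It was higher in the cocktail hemisphere of all 6 mice, with ratios of 1.13 to 1.31, and 5 of 6 cocktail libraries lay above the highest control library. The exception was mouse 1, which had the lowest level in both groups. The means were 8.16 ± 1.03 and 9.76 ± 0.980 FPKM (SD, n = 6), and the log2 fold change was 0.24 ± 0.050 (SE) with a 95% interval of 0.13 to 0.34 (limma, adjusted p = 0.0366; exact sign-flip permutation test, p = 0.03125). The call lay near the threshold. It was kept without mouse 1 (0.23, adjusted p = 0.0439) and lost without mouse 2, 3, 4, 5 or 6 (0.21 to 0.25, adjusted p = 0.0668 to 0.154), with no filter on low values (adjusted p = 0.0633), with voom (0.17, adjusted p = 0.307) and with no block for the mouse (adjusted p = 0.536).

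Smad6 (chr9:63953076-64022059, minus strand), the inhibitory Smad that acts mainly on BMP signalling, was the lowest member. It had 0.694 to 0.859 FPKM in control (median 0.744) and 0.620 to 1.05 FPKM in cocktail (median 0.865), on 16 to 42 reads a library. It was higher in the cocktail hemisphere of 5 of 6 mice, by 0.06 to 0.18 on the log2 scale, and lower in mouse 1, at -0.18. In the fit with no filter on low values its log2 fold change was 0.07, with a 95% interval of -0.04 to 0.19 and an adjusted p of 0.812 by limma. Counting error alone gives a spread of 19.7% at this depth, and the spread among the control libraries was 8.96%.

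**Figure D2:**
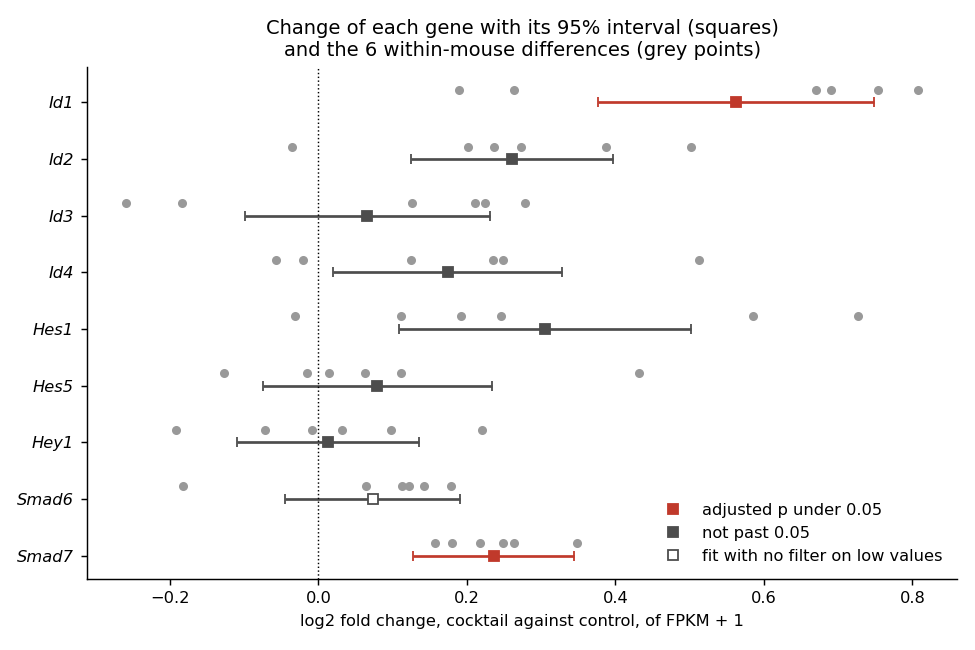
Log2 fold change of FPKM + 1, cocktail against control, with its 95% interval for each gene, and the 6 within-mouse differences as grey points. All 6 points of Id1 and of Smad7 lie to the right of 0, while those of Hes5 and Hey1 lie on both sides.

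No member had all 6 cocktail libraries above all 6 control libraries, an arrangement met in 0.715% of the loci tested. Id1 and Smad7 were the members that were higher in the cocktail hemisphere of all 6 mice, which held for 3.64% of the loci tested. As above, these shares over all loci are given as a description.

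Whether paralogs differed in their response was tested by comparing their within-mouse differences in 10 pairs, with exact two-sided sign-flip permutation tests over 6 mice and Benjamini-Hochberg adjustment over the 10 pairs. None passed 0.05 after adjustment, and on this scale 3 had the same order in all 6 mice (exact permutation p = 0.03125, adjusted p = 0.104). Since 6 mice allow no smaller p, none of the 10 pairs could pass unless more of them kept their order. That none passed therefore does not show that paralogs responded alike. Id1 rose more than Id3 in every mouse, by 0.50 on the log2 scale with a 95% interval of 0.19 to 0.80. Hes1 changed more than Hey1 in every mouse, by 0.29 with an interval of -0.01 to 0.60. On log2(FPKM + 1), the difference of Smad6 minus Smad7 was below 0 in every mouse, at -0.16 with an interval of -0.32 to -0.01, but this order rests on the scale, which shrinks the change of a gene as low as Smad6. With a pseudocount of 0.1 the difference was -0.12 (exact permutation p = 0.40625), which leaves 2 pairs past an unadjusted 0.05, and the ratio of cocktail to control was larger for Smad6 than for Smad7 in mice 3, 5 and 6. For Id1 and Id2 the difference was 0.30, with an interval of -0.11 to 0.71 and Id1 ahead in 4 of 6 mice (exact permutation p = 0.125), so Id1 was not shown to respond more than Id2. The difference between Id2 and Id4 was 0.09, with an interval of -0.10 to 0.27.

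The order of levels in control was Id2, Hey1, Id4, Id3, Hes1, Smad7, Id1, Hes5 and Smad6, with means of 88.0, 22.2, 15.3, 12.8, 9.75, 8.16, 6.51, 4.96 and 0.766 FPKM. Neighbours were compared within the 6 control libraries, on log2(FPKM + 1), with exact two-sided sign-flip permutation tests adjusted over the 8 pairs. The order was taken from these same libraries, so the pairs and their directions were set by the values tested, and the p-values are a description. Id2 exceeded Hey1 by 1.93, Hey1 exceeded Id4 by 0.52 and Hes5 exceeded Smad6 by 1.72, each in all 6 libraries (exact permutation p = 0.03125, adjusted p = 0.0833). The other 5 pairs of neighbours, from Id4 to Hes5, changed order in 1 or 2 of the 6 libraries. Their exact permutation p was 0.0625 to 0.1875, and this test cannot decide whether their levels differ. None of the 8 pairs could pass 0.05 after adjustment unless more of them kept their order, since 6 libraries allow no smaller p.

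**Figure D3:**
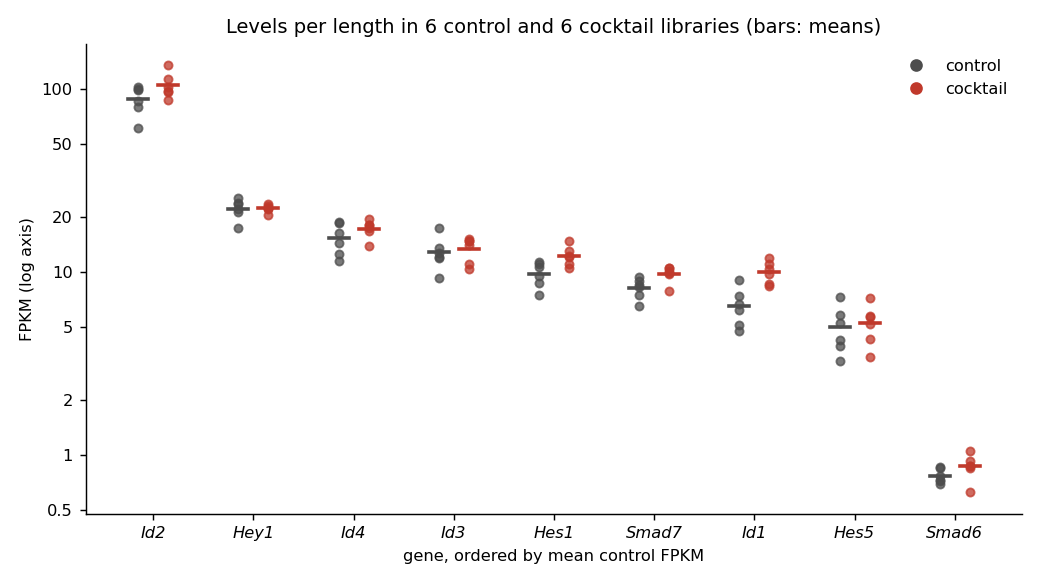
FPKM of the 9 genes on a log axis, ordered by mean control level, with 6 control and 6 cocktail libraries as points and the means as bars. Id2 lies far above the others and Smad6 far below, and in the cocktail libraries the means keep this order, save that Id1 lies above Smad7.

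The other genes of these pathways, 100 genes in 10 lists, gave 84 tested loci. Of these, 1 was called, against 1.5% of all loci tested, and 10 had an unadjusted p under 0.05, against 8.05% of all loci. Both counts are near the background. The median log2 fold change of the 84 was 0.0073, against 0.0076 over all loci tested.

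The gene called was Bhlhe40, a bHLH repressor related to the Hes family that is known as a clock gene and an immediate early gene. It ran from 50.1 to 68.1 FPKM in control and from 61.3 to 77.4 FPKM in cocktail and was higher in the cocktail hemisphere of all 6 mice, with means of 60.3 ± 8.04 and 69.7 ± 6.62 FPKM (SD, n = 6). Its log2 fold change was 0.21 (limma, adjusted p = 0.0351). No gene of the 10 lists was called with the block for the mouse removed, with no filter, with median-of-ratios or quantile scaling, with no variance trend, with voom, or without mouse 2, 3, 4 or 5.

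Upstream of the Id and inhibitory Smad genes, 0 of 10 tested ligands of the BMP and TGF-beta family and 0 of 9 receptors were called. The list medians were 0.04 for both, and at an unadjusted p under 0.05 the counts were 0 and 1, against 8.05% of all loci. The Smads that carry the signal into the nucleus ran from -0.07 to 0.06 and none of the 6 passed, also at an unadjusted p. Smad1, Smad5 and Smad9, which transmit BMP signals, changed by 0.06, -0.02 and -0.07. Smad2 and Smad3, which transmit TGF-beta and activin signals, changed by -0.0042 and -0.07, and the shared partner Smad4 by -0.04. Among 13 tested inhibitors of these pathways other than Smad6 and Smad7, such as Nog, Chrd and Smurf1, 0 were called and 2 had an unadjusted p under 0.05.

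In the Notch pathway, none of the 5 ligands passed the threshold. Dll4, the ligand best known from vessels, had the largest value of the 84 genes, 0.28. Its level ran from 0.700 to 1.35 FPKM in control and from 1.15 to 1.97 FPKM in cocktail, with an adjusted p of 0.144 by limma. Dll1, Dll3, Jag1 and Jag2 changed by 0.10, 0.02, -0.03 and 0.0072. The receptors Notch1, Notch2, Notch3 and Notch4 changed by 0.07, -0.02, -0.04 and -0.0058, and none had an unadjusted p under 0.05. Of 17 genes for Notch processing and the nuclear complex, 0 were called, and the list median was 0.00020. At an unadjusted p under 0.05, 1 of the 17 passed, against 8.05% of all loci.

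Partners of the members moved little. Among the Groucho corepressors that Hes and Hey proteins recruit, Tle1, Tle2, Tle3, Tle4, Tle6 and Aes changed by 0.13, -0.05, 0.07, -0.01, -0.02 and -0.05. None was called, and Tle1 had an unadjusted p under 0.05. Of 9 tested E proteins and tissue bHLH factors, the partners that Id proteins sequester, 0 were called and 1 had an unadjusted p under 0.05. The list of other Hes, Hey and related repressors, which holds Bhlhe40, had 3 of 5 at an unadjusted p under 0.05. Over all loci tested this share was 8.05%. The other pair of these, picked out after their values were seen, were Nrarp, a Notch target that limits Notch signalling, at 0.16 in 6 of 6 mice (adjusted p = 0.207), and Bhlhe41, the paralog of Bhlhe40, at -0.20 (adjusted p = 0.234).

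**Figure D4:**
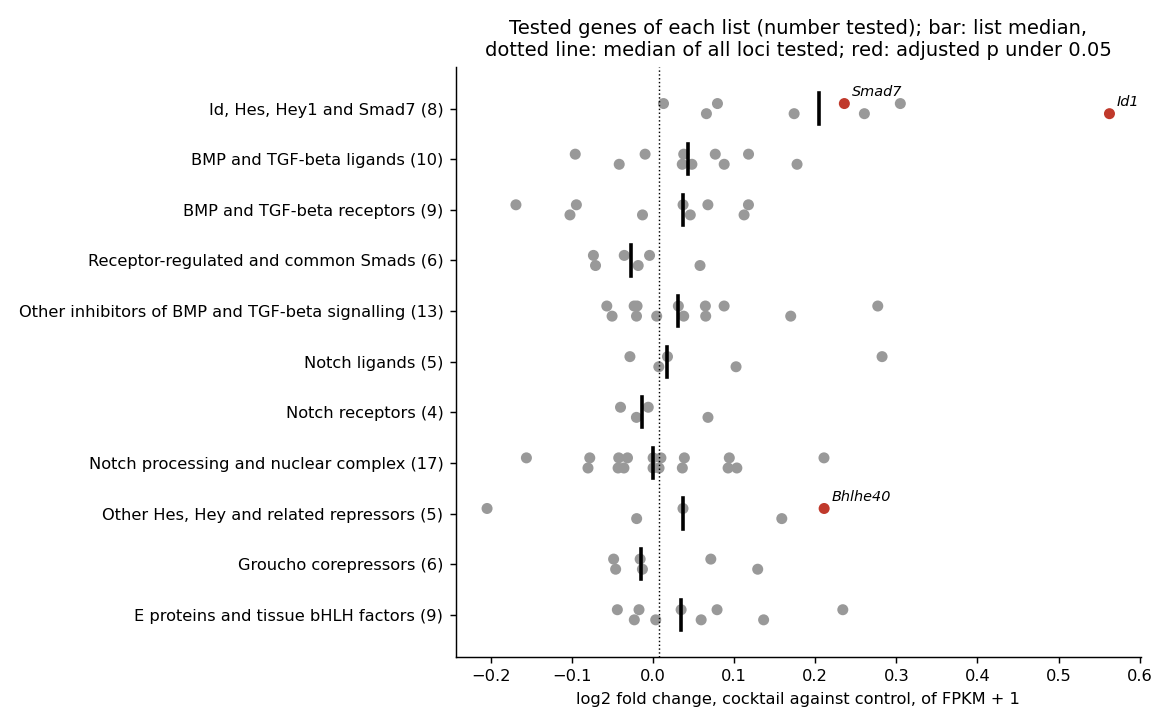
Log2 fold changes of the tested genes of each list, cocktail against control, with black bars for list medians, a dotted line for the median of all loci tested and red points for an adjusted p under 0.05. Id1, Smad7 and Bhlhe40 are the genes in red, and the list medians of the pathway genes lie within 0.05 of 0.

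Markers of cells in which these genes are known to be expressed were read from the same fit. Over all loci tested, 1.5% were called and 8.05% had an unadjusted p under 0.05. Of 10 astrocyte markers 1 was called, Sox9, a transcription factor of astrocytes and their precursors. It ran from 8.96 to 14.6 FPKM in control and from 14.0 to 17.0 FPKM in cocktail, was higher in the cocktail hemisphere of 6 of 6 mice and changed by 0.32 (limma, adjusted p = 0.0235). This call was lost with no block for the mouse, with no filter, and without mouse 3, 4 or 6. The other 9 astrocyte markers ran from -0.06 to 0.11 and none had an unadjusted p under 0.05. The list summed to 681 to 876 FPKM in control and to 815 to 859 FPKM in cocktail libraries, and its median change was 0.06. None of 10 endothelial markers was called, 1 had an unadjusted p under 0.05, the median change was 0.01, and the list summed to 81.2 to 88.9 FPKM in control and 77.1 to 92.1 FPKM in cocktail. Of 5 tested markers of meningeal fibroblasts, 0 were called and 4 had an unadjusted p under 0.05, against 8.05% of all loci, with sums of 22.5 to 32.3 FPKM in control and 25.0 to 33.1 FPKM in cocktail. The values of these 4 were picked out after they were seen. Col1a1 changed by 0.26 (higher in 6 of 6 mice), Dcn by 0.23 (4 of 6) and Col1a2 by 0.13 (6 of 6). Igf2 changed by -0.12 (higher in 1 of 6), and the other tested marker, Slc6a13, by 0.08 (4 of 6). The only blood marker tested, Hbb-b1, had 0.45 in 5 of 6 mice (limma, adjusted p = 0.0935). Of 6 tested mural cell, 9 microglia and 7 oligodendrocyte markers, 0 were called, with median changes of 0.03, 0.10 and 0.11. At an unadjusted p under 0.05 their counts were 1, 2 and 0. Over all marker lists, 1 of 69 tested genes was called. The part of any of these cells in the values of Id1 and Smad7 was not tested.

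Genes whose levels ran most like those of a member over the 12 libraries are given as a description, since all libraries share the same treatment and the same mice. For Id1 these were Hspb1, a small heat shock protein (Pearson's r = 0.870), and Ciart, a repressor of the clock (r = 0.867), and both were themselves called and higher in cocktail, by 0.50 and 0.51. For Smad7 they were Tbp, the TATA-binding protein (r = 0.960), which was not called (0.22, adjusted p = 0.0772 by limma), and Slc15a3, a peptide and histidine transporter (r = 0.920), which was called (0.74). Id2 ran most like Hmgb2 (r = 0.949) and Nxph1 (r = 0.946), and Hes1 most like Rpl9 (r = 0.914) and Ddc (r = 0.898). For Id3 the nearest were Nosip and Mblac1, for Id4 Chd7 and Crlf3, for Hes5 Sowahc and Rasgef1b, for Hey1 Agfg1 and Aasdhppt, and for Smad6 Tmem176b and C1qa, with r of 0.841 to 0.972, and none of these 10 was called. Without the control library of mouse 1, which stood apart, the r of all these genes with their members ran from 0.826 to 0.951. With that library they ran from 0.841 to 0.972. No member was among the nearest genes of another.

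**Figure D5:**
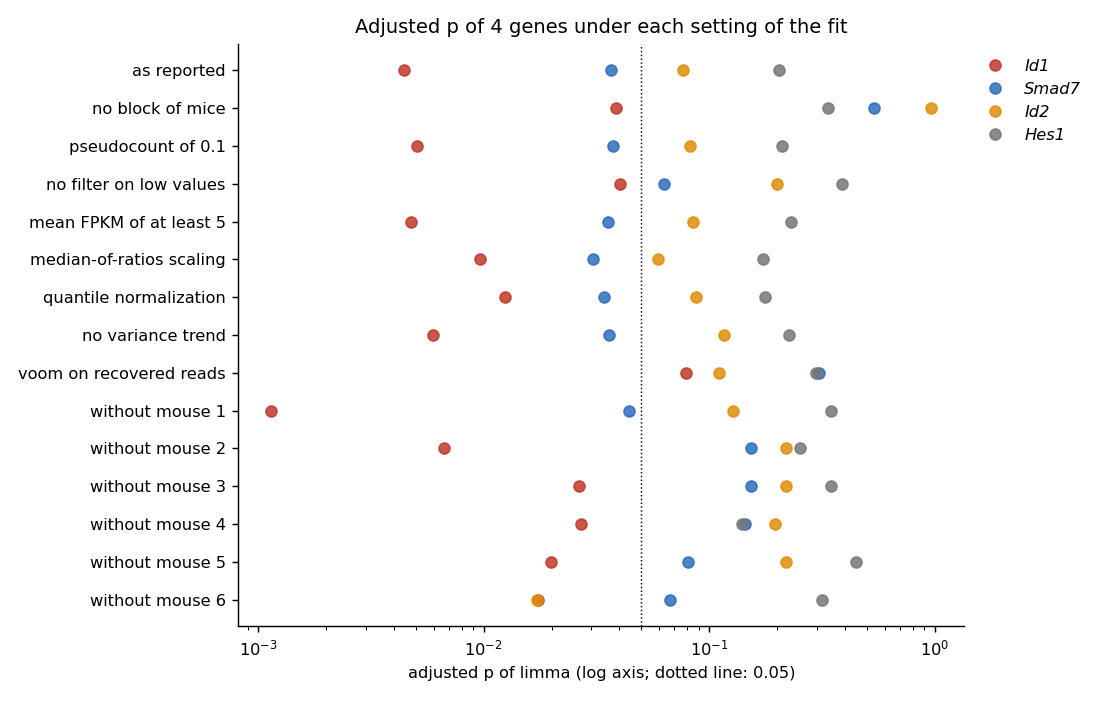
Adjusted p of limma on a log axis for Id1, Smad7, Id2 and Hes1 in the reported fit and under 14 other settings, with a dotted line at 0.05. Id1 lies left of the line in every setting but voom on the recovered reads, Smad7 lies on both sides, Id2 lies left of it only without mouse 6, and Hes1 always lies right of it.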

How the data were processed

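Poly-A RNA of 12 dissected auditory cortices, 6 per group, was sequenced as strand-specific single reads of 50 bases in 1 lane. The authors removed ribosomal reads with BWA 0.6.1, aligned the rest to mm10 with TopHat 1.4.1 (6 mismatches, 1 placement per read) and estimated the deposited FPKM values with Cufflinks 1.3.0 after bias correction, scaled to fragments on RefSeq genes with a protein coding transcript. The authors' table of their own DESeq2 1.6.3 comparison, on HTSeq 0.6.1p1 counts, holds mean counts, fold changes, standard errors and p-values, and was not used.

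For loci with a mean of at least 1 FPKM, log2(FPKM + 1) was fitted by limma (version 3.58.1, R 4.3.3) on treatment with the mouse as a block, a variance trend and Benjamini-Hochberg adjustment over all 12032 loci at 0.05. The fit was tested on simulated data with changes larger than the fitted changes of all members but Id1. Changes as small as those of the other members were not simulated. Differences of single genes, of paralogs and of neighbours were tested with exact sign-flip permutation tests (NumPy 2.4.6). The 95% intervals of single genes are those of limma. For pairs of paralogs they are intervals of the mean over mice from the t distribution (SciPy 1.17.1). Reads were recovered from the FPKM intervals, and 83.2% of 36158 values under 20 reads lay within 0.05 of a whole number. Intervals and spreads from reads cover counting error only. Transcript likeness was searched with blastn 2.17.0, and figures were drawn with matplotlib 3.10.9.

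Control and cocktail libraries were paired by number, and hemispheres with the same number were taken to be from the same animal. Their deviations from the means of their groups correlated by 0.216 to 0.406 within 6 mice, against -0.42 to 0.445 over 30 pairs of different mice. Of the 6 control libraries, 4 correlated best with the cocktail library of their own mouse. Libraries of a group were distinct, with a chi-square per gene of 7.29 to 37.1 between them. The number of mice is 6 per group, and hemispheres of a mouse are not independent of each other.

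The members and the gene lists were chosen with earlier results of these data known. The rule for genes named was all members, each pathway gene called, each tested gene of pathway lists of at most 6 genes, the 2 loci most correlated with each member, and markers a result turns on. Alternatives were no block, a pseudocount of 0.1, no filter, a mean of at least 5 FPKM, 2 other scalings, no variance trend, voom on recovered reads, and leaving out each mouse. Promoters are from RefSeq tables, and gene coordinates were read from the files and count from 1.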

Additional observations from a re-analysis of the deposited data

Results flagged for a closer look

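In 27 sets of 6 values, the control levels, cocktail levels and within-mouse differences of the 9 genes, 2 held a value far from the other 5 by Dixon's criterion. Chance gives about 1 in 20, or 1.35 of 27. Both belong to mouse 1. The within-mouse difference of Smad6 was -0.18 on the log2 scale in mouse 1 and 0.06 to 0.18 in all the rest, on 42 control and 23 cocktail reads. The cocktail level of Smad7 was 7.88 FPKM in mouse 1, against 9.75 to 10.5 FPKM in the other 5. The control level of Smad7 in this mouse, 6.47 FPKM, was also the lowest of its group.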

How the results depend on the processing

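Id1, Id2, Id3, Id4, Hes1, Hes5 and Smad7 kept their direction under all 14 settings. Id1 lost its call with voom (0.57) and was 0.51 to 0.64 without a mouse. Smad7 lost its call with no replicate block and with no filter (0.24 in both), with voom (0.17) and without mouse 2, 3, 4, 5 or 6, and was 0.21 to 0.25 without a mouse. Id2 was 0.21 to 0.32 without a mouse and was called without mouse 6. Hey1 turned to -0.0020 with quantile normalization, to -0.066 with voom, to -0.028 without mouse 1 and to -0.0041 without mouse 6, never near a call, and was -0.028 to 0.054 over all mice left out. Members called were 1 with no replicate block and with no filter, 0 with voom (at an unadjusted p under 0.05 in that fit over all loci, 1344 passed), and 1 to 2 without a mouse. Loci called were 88 with no replicate block against 180 with it, and 104 to 183 without a mouse. Pathway genes called were 0 with no replicate block, no filter, median-of-ratios scaling, quantile normalization, no variance trend and voom, and 0 to 2 without a mouse. Marker genes called were 0 with no replicate block and no filter, and 0 to 2 without a mouse. The cause of these changes was not tested. The block moved no other call of a member. Leaving out a mouse leaves 5 pairs, for which the exact test cannot go below 0.0625. With a pseudocount of 0.1, 2 pairs of paralogs passed an unadjusted 0.05 against 3. Smad6 had the fewest reads, 16 to 42 a library.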
